A study of Phalaenopsis equestris with 4 samples.

Results

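Contigs abundant in root and much lower in the shoot were followed across root, stem, leaf and flower of Phalaenopsis equestris, a butterfly orchid. They are 81 of 221878 contigs assembled de novo from RNA sequencing. A contig was taken where it reached 50 FPKM in root, where its root level was at least 5 times that of each of the 3 other tissues after 1 FPKM was added to every value, and where stem and flower were both above 0. FPKM is defined as the number of sequenced fragments scaled to contig length and library size, so levels of different contigs can be set side by side per length. Whether the deposited values were scaled to library size is not stated. The 44 contigs that the authors matched to heat shock proteins or to R genes, the disease resistance genes, were left out, and none of them met the rest of the rule. Because these values of all 4 tissues chose the contigs, the root levels and their margins over other tissues are a description and no finding.

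The groups were root, stem, leaf and flower of plants 3 years old, with total RNA of each tissue made into 1 library and no genotype or treatment given. With 1 library per tissue there is no replicate check, no difference has a p-value, and variation between plants of 1 tissue was not measured. The labels do not say how many plants each tissue came from.

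Orchids of this genus grow on trees, and their roots hang in air or cling to bark. Such a root takes up water and mineral nutrients through the velamen, a dead spongy sheath over the living cortex, is often green, and can house symbiotic fungi. Transcripts concentrated in a plant root commonly include carriers of nitrate, phosphate and metals, water channels, cell wall enzymes and peroxidases. None of these roles could be given to the 81 contigs, since the expression table names contigs by assembly number alone, and none of its names occurs in the RefSeq gene table of this orchid. For the same reason the tissues could not be checked against marker genes, and the organism each contig came from was not tested. The requirement of a value above 0 in stem and flower shows only that reads were assigned there.

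All 81 contigs lay between 50.005 and 714 FPKM in root, with a median of 81.3 FPKM. They made up 0.0365% of the contigs the rule was applied to and 1.24% of the summed root FPKM. In stem, leaf and flower they held 0.172%, 0.00753% and 0.0566% of the sums. The leaf sum is dominated by 13 contigs of a single assembly component, c157498, which hold 75.9% of it, so the leaf share is lowered by contigs outside this set. Over the 81 contigs the median level was 8.46 FPKM in stem, 1.41 in leaf and 1.36 in flower. Fewer expressing cells and less RNA per cell cannot be told apart in whole tissue. Of the 81 contigs 34 reached 100 FPKM in root, 12 reached 200 and 2 reached 500. By rank, 42 were among the 1000 most abundant root contigs and 6 among the top 100. Only 2 were among the 1000 most abundant in stem, and 0 in leaf or flower.

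**Figure D1:**
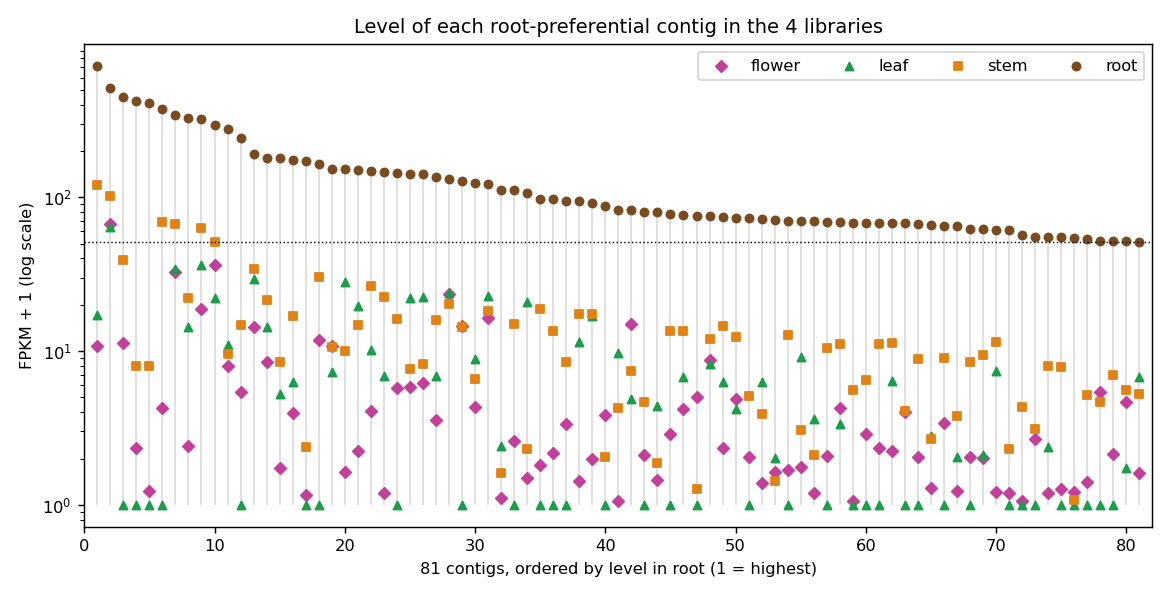
FPKM + 1 on a log axis for each of the 81 contigs, ordered by root level, with 1 symbol per library and a dotted line at the root floor of 50 FPKM. Root values run from 50.005 to 714 FPKM, most stem values lie above those of flower, and the 35 leaf values listed at 0 sit on the bottom line at 1.

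The libraries did not resolve low levels equally, which bears on every leaf value. Leaf values above 0 began at 0.128 FPKM, while those of stem began at 0.006 and those of root and flower at 0.007. Among contigs that were alone in their Trinity gene, ratios of leaf to root values peaked where 1 leaf read was worth 16.6 times the FPKM of 1 root read. The assembler joins contigs that look like forms of 1 transcript into what it calls a Trinity gene. Against stem the ratio was 26.5 times. Provided that values were scaled to library totals, of which no source used here speaks, a contig at equal FPKM thus had 0.0604 times as many reads in leaf as in root. A leaf value of 0 would then say less than a low value elsewhere, and the tissues' order below is given with this limit. The 24591 contigs above FPKM 1 in all 4 libraries were 0.87 log2 units higher in leaf than in root as deposited, by median-of-ratios factors. Contigs at 0 or low in leaf are left out of this value, so that choice may raise it.

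The most abundant contig was c154039_g1_i2, at 714 FPKM in root, with 119 in stem, 16.2 in leaf and 9.75 in flower. Next came c204955_g1_i1, at 509 FPKM in root, compared with 100.3 in stem, 63.0 in leaf and 65.6 in flower. The third was c153586_g3_i1, at 447 FPKM in root, with 38.1 in stem and 10.3 in flower, and listed at 0 in leaf. These contigs differed in the shoot, where c204955_g1_i1 stayed at 63.0 FPKM or more in each tissue and c153586_g3_i1 spanned from 0 to 38.1.

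Contigs c116575_g1_i1 and c116575_g1_i2 are forms of 1 Trinity gene. The first was at 425 FPKM in root, with 6.97 in stem and 1.35 in flower, and the second at 409 in root, 6.96 in stem and 0.226 in flower. Both were listed at 0 in leaf. Forms of a gene may share reads, so they count as 1 observation of a high root level with little elsewhere, and their flower values differ between 2 low numbers.

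A further group kept an appreciable shoot level. Contig c160407_g1_i1 was at 373 FPKM in root, with 67.6 in stem and 3.24 in flower, and was listed at 0 in leaf. Contig c90689_g2_i1 was at 342 FPKM in root, against 66.1 in stem, 33.3 in leaf and 31.4 in flower. Contig c112921_g1_i1 was at 323 FPKM in root, with 62.5 in stem, 35.3 in leaf and 17.8 in flower. Stem was the next tissue in each of these, at about the same level, while leaf and flower ranged from 0 to 35.3 FPKM. In contig c204844_g1_i1 flower was above leaf with both above 0. It was at 296 FPKM in root, compared with 49.9 in stem, 21.1 in leaf and 35.3 in flower.

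The rest of the 15 highest had no shoot value above 33.2 FPKM. Contig c65538_g1_i1 was at 325 FPKM in root, against 21.0 in stem, 13.4 in leaf and 1.40 in flower. Contig c148434_g1_i1 was at 279 FPKM in root and at 8.59, 10.0 and 6.98 in stem, leaf and flower. Contig c156369_g4_i1 was at 243 FPKM in root, with 13.7 in stem and 4.44 in flower, and listed at 0 in leaf. Of these, c148434_g1_i1 was the most even across the shoot. Contig c149728_g2_i1 was at 189 FPKM in root, with 33.2 in stem, 28.6 in leaf and 13.3 in flower. Contig c23639_g1_i1 was at 180 FPKM in root, compared with 20.4 in stem, 13.4 in leaf and 7.44 in flower. Contig c206213_g1_i1 was at 179 FPKM in root, against 7.47 in stem, 4.28 in leaf and 0.743 in flower. In these 3 the levels fell from stem through leaf to flower.

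The margin of root over the next tissue, as a ratio of FPKM + 1, had a median of 7.53 over the 81 contigs. It was under 6 in 24, at least 10 in 31, at least 20 in 11 and at least 40 in 5. On this scale the fold of contigs that are low elsewhere is understated. The widest was that of c185105_g1_i1, at 171 FPKM in root, with 1.39 in stem, 0 in leaf and 0.163 in flower, a margin of 71.9. Both forms of c116575_g1 followed, with margins of 53.4 and 51.5. Contig c133349_g1_i1 was at 111 FPKM in root, compared with 0.599 in stem, 1.41 in leaf and 0.106 in flower, a margin of 46.4. Contig c131200_g1_i1 was at 53.3 FPKM in root, against 0.073 in stem, 0 in leaf and 0.219 in flower, a margin of 44.5. In both of the latter the whole shoot lay near 0, and the stem value of c131200_g1_i1 was below the 1st percentile of stem values above 0, which was 0.098 FPKM.

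At the other end the margin sat on the limit. It was 5.03 for c204955_g1_i1, 5.10 for c112921_g1_i1 and 5.11 for c90689_g2_i1, which are also the 3 highest of the set in leaf. Contig c212554_g1_i1, at 106 FPKM in root, with 1.32 in stem, 19.9 in leaf and 0.495 in flower, had 5.11 with leaf as the next tissue. Contig c128934_g2_i1, at 73.6 FPKM in root, compared with 13.6 in stem, 5.33 in leaf and 1.35 in flower, had 5.12. Just outside lay c125828_g1_i1, at 59.9 FPKM in root and 11.4 in stem with a margin of 4.91, and c115939_g1_i1, at 56.7 in root and 10.9 in leaf with 4.84. Margins of 4.83, 4.82 and 4.82 belonged to c152668_g1_i1, c149728_g2_i2 and c152364_g3_i1. With 5.03 inside and 4.91 outside, no gap separates the set from its neighbours.

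The floor on root level was no sharper. The lowest inside was c148357_g3_i1, at 50.005 FPKM in root, against 4.23 in stem, 5.78 in leaf and 0.601 in flower. Next was c149890_g2_i2, at 50.6 in root, with 4.56 in stem, 0.734 in leaf and 3.64 in flower. Contigs c146919_g2_i1, c59240_g1_i1 and c116246_g1_i1 followed at 51.1, 51.3 and 52.3 FPKM in root, with 6.03, 3.63 and 4.21 in stem and 1.15, 4.39 and 0.410 in flower, and all 3 were listed at 0 in leaf. Just below the floor lay c148694_g1_i1 at 49.2 FPKM in root, c61177_g2_i1 at 48.6, c194953_g2_i1 at 48.2, c135895_g2_i1 at 47.9 and c157670_g1_i1 at 47.8.

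**Figure D2:**
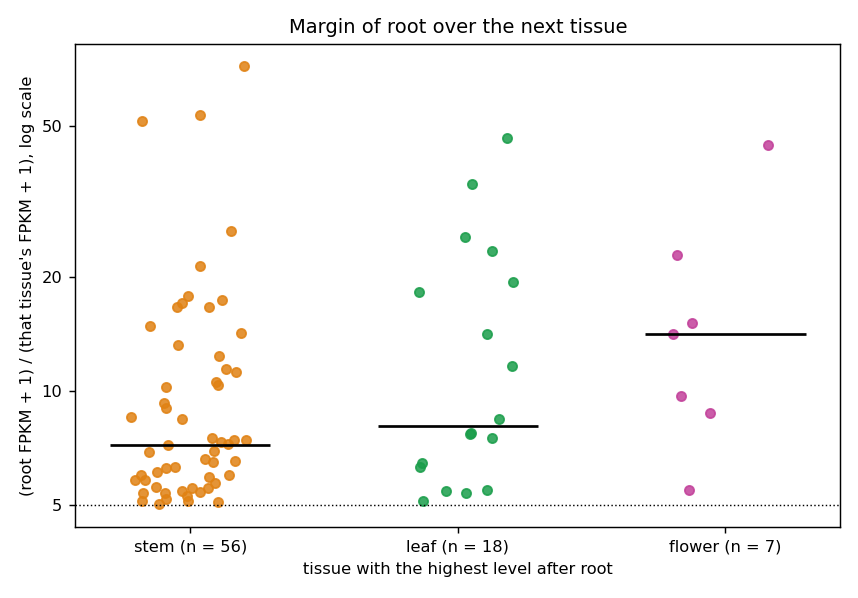
Ratio of root to the next tissue on FPKM + 1, on a log axis, for each of the 81 contigs, grouped by which tissue was next. Points are contigs with random horizontal spread, black lines are medians (7.21 for stem, 8.07 for leaf, 14.1 for flower) and the dotted line is the limit of 5; most points of the stem group lie close above that limit.

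Stem was the next tissue after root in 56 of the 81 contigs, leaf in 18 and flower in 7. The same counts were not made over other contigs, here or for the complete orders below, so they describe this set alone. In the 56 contigs the stem level had a median of 10.7 FPKM and ran from 1.31 to 119. Where leaf was next, its level ran from 1.02 to 27.0 FPKM with a median of 8.48, against 3.75 in stem and 0.63 in flower. The count with leaf next depended on scaling and was 10 with median-of-ratios factors and 1 where library sums were equalised. The 7 contigs with flower next had a median of 4.39 FPKM in flower and 3.63 in stem.

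Contigs c175374_g1_i2 and c175374_g1_i1, forms of 1 Trinity gene, were among those with leaf next. They stood at 142 and 141 FPKM in root, 6.61 and 7.20 in stem, 21.1 and 21.6 in leaf, and 4.81 and 5.24 in flower. The pair stayed close in each library, as forms that share reads can.

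The complete order was root, stem, leaf, flower in 20 contigs, root, leaf, stem, flower in 16, and root, stem, flower, leaf in 6. The last 2 orders with a leaf value above 0 placed flower before stem, in 2 contigs each. Of the 35 contigs listed at 0 in leaf, 30 had stem above flower and 5 had flower above stem. Contigs at 0 in leaf made up 25 of the 47 below 100 FPKM in root and 10 of the 34 above. Their medians were 71.8 FPKM in root, 6.97 in stem and 1.35 in flower, against 108 FPKM in root, 10.2 in stem and 1.98 in flower where leaf was above 0. Leaf at 0 was listed for 43.2% of the set, near the 47.8% of all contigs above 0 in stem and flower. It was listed for 2.71% of the 1769 contigs with at least 50 FPKM in root that passed the shoot condition and were not taken. The rule caps the leaf level of the set relative to root. How much of the difference from the 1769 contigs is the rule's own making was not tested.

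The rule sets no order between stem and flower, and there the set can be read against other contigs. Between these tissues and leaf it sets a part of the order, since stem and flower had to be above 0 and leaf did not. Stem was higher than flower in 72 of the 81 contigs, with a median difference of 1.48 log2 units on FPKM + 1. The median was 0.41 over all 104346 contigs above 0 in both tissues, and 0.14 over the 1769 contigs with at least 50 FPKM in root that were not taken. Stem reached 4 times the flower level in 31 of the 81 contigs, or 38.3%. Over all contigs above 0 in both the share was 3.22%, and over the 1769 it was 12.9%. Flower reached 4 times the stem level in 0 of the 81, against 1.43% and 1.3% in the same 2 backgrounds. The libraries gave no test of this difference, and the rule's cap on both tissues relative to root, together with the lower levels it leaves, was not matched in either background. The 4-fold count of stem over flower was 29 with median-of-ratios factors and 32 where sums were equalised. Relative to root, the log2 factors of stem and flower were 0.038 and 0.041 by median-of-ratios and -0.388 and -0.364 by sums. Both scalings thus treat stem and flower almost alike and could hardly change this count. Only 4 contigs reached 4-fold with a pseudocount of 5.

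The widest lead of stem over flower was in c86531_g1_i1, at 145 FPKM in root, compared with 21.4 in stem, 5.84 in leaf and 0.191 in flower, where stem was 18.8 times flower on FPKM + 1. In c160407_g1_i1, described above, it was 16.2 times. In c158461_g1_i1, at 93.0 FPKM in root, against 16.4 in stem, 10.5 in leaf and 0.432 in flower, it was 12.1 times. The flower level was under 5 FPKM in all 3 and the stem level over 10. The reverse was seen in c117336_g1_i1, at 74.96 FPKM in root, with 0.275 in stem, 0 in leaf and 4.04 in flower, where flower was 3.95 times stem. It was 2.04 times in c157423_g2_i1, at 81.1 FPKM in root, compared with 6.38 in stem, 3.86 in leaf and 14.04 in flower. It was 1.90 times in c120871_g1_i1, at 86.9 FPKM in root, against 1.03 in stem, 0 in leaf and 2.86 in flower.

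**Figure D3:**
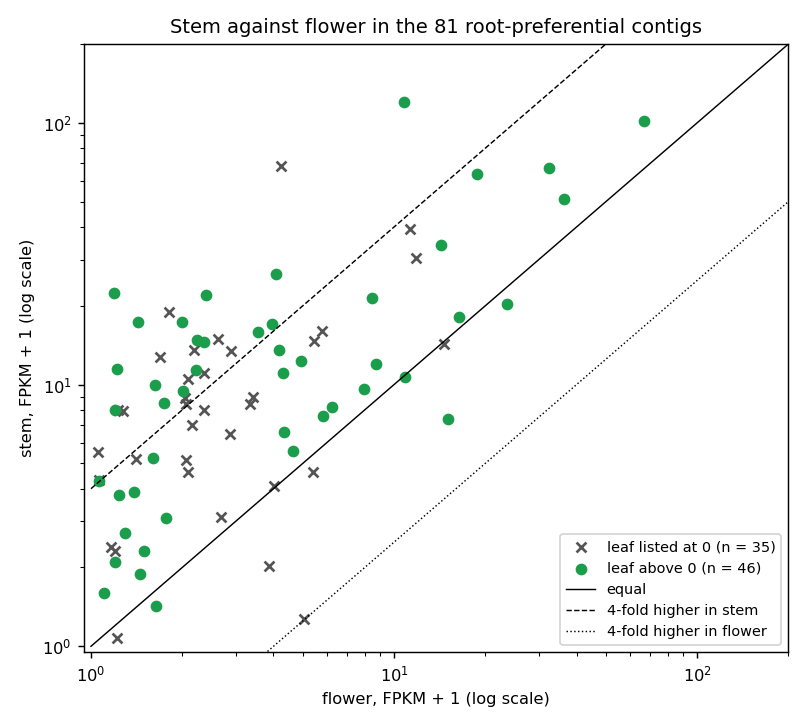
Stem against flower level, each as FPKM + 1 on a log axis, for the 81 contigs, with crosses for the 35 listed at 0 in leaf and circles for the 46 above 0. The solid line marks equal levels and the other lines 4-fold differences; 72 contigs lie above the solid line, 31 on or beyond the dashed line and 0 beyond the dotted line.

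Stem against leaf gave a median difference of 1.21 log2 units over the 81 contigs, and stem was 4-fold higher in 31 of them. The background shares were 4.64% of all contigs above 0 in stem and flower and 4.75% of the 1769. Of the 31 contigs, 29 were listed at 0 in leaf, where the rule itself places stem above leaf. Among the 46 contigs above 0 in leaf, stem was higher than leaf in 28 and lower in 18, and 4-fold higher in 2. With sums set equal, stem was 4-fold higher than leaf in 62 of all 81 contigs. Leaf was 4-fold higher than stem in 1 of the 81, c212554_g1_i1, against 5.54% and 14.3% in the backgrounds. In 16 contigs stem was 4-fold above both leaf and flower, and in 35 it was 4-fold above neither.

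The order of flower and leaf turned on the contigs listed at 0 in leaf. In these 35 the rule places flower above leaf. Among the 46 contigs above 0 in leaf, leaf was above flower in 38 and flower above leaf in 8, with a median difference of -1.04 log2 units for flower over leaf. Over all 81 contigs the median was 0.09. Flower was 4-fold higher in 9 contigs, or 11.1%, against background shares of 2.01% and 1.53%. All 9 were listed at 0 in leaf, where the rule sets the direction, since the largest difference among the 46 was 1.63 log2 units. Leaf was 4-fold higher in 12, or 14.8%, against 8.62% and 22.3%. With median-of-ratios factors the counts for flower and for leaf were 9 and 6, and where sums were equalised 26 and 0.

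Presence in the shoot varied in strength. Of the 81 contigs 76 reached 1 FPKM in stem and 53 did so in flower, while 45 did in leaf. In 4 contigs stem and flower were both above 0 but under 1 FPKM. All 3 shoot tissues lay at 5 FPKM or more in 13 contigs and under 5 FPKM in 20. With a minimum of 1 FPKM in both stem and flower in place of a value above 0, the rule took 52 contigs. Across the 81 contigs Pearson's r of log2(FPKM + 1) was 0.65 for root and stem and 0.63 for stem and flower, with Spearman's rho of 0.60 and 0.57. These are descriptions over contigs that share libraries, and the rule itself caps stem by root.

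The condition on the shoot removed 54 contigs that met the root floor and the margin. Of these 50 were listed at 0 in flower, 20 in stem and 16 in both. Only 1 was above 0 in leaf, c125247_g1_i1. Over all contigs 52.4% were above 0 in flower, 79.3% in stem and 28.4% in leaf. A 0 in stem or flower is what removed these 54 contigs, so their zeros there are set by the condition. Their median root level was 64.5 FPKM, below the 81.3 FPKM of the set, and they held 0.579% of the root sum. The 5 highest were c177502_g1_i1, c103978_g1_i1, c155444_g11_i1, c151156_g2_i2 and c182391_g1_i1, at 593, 366, 314, 305 and 190.5 FPKM in root. In stem these stood at 97.3, 0, 15.9, 29.9 and 2.20 FPKM, and c103978_g1_i1 alone was above 0 in flower, at 0.969 FPKM. In the set, c160407_g1_i1 was lower than c177502_g1_i1 in both root and stem, at 373 and 67.6 FPKM. Their margins over stem were 5.45 and 6.04, and of this pair only c160407_g1_i1 was listed above 0 in flower.

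Assembly structure was not used by the rule. The 81 contigs belonged to 79 Trinity genes in 79 assembly components, and 65 of them, or 80.2%, were the single contig of their gene. The share was 56.5% over all contigs above 0 in stem and flower, 69.7% over all 221878 contigs and 76.2% over the 1769. The set thus lay nearer to other abundant root contigs than to either wider group. The remaining 16 contigs lay in 14 genes with more than 1 contig.

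The other 25 contigs of those genes were not chosen by the rule, although they may share reads with the contigs that were. Of the 25, 18 were highest in root, or 72.0%, against 35.9% of contigs in all genes with 2 or more contigs. The margin of 5 was met by 5 of the 25, against 1.1%. Of the 22 with at least 1 FPKM in root, 18 were highest in root and 5 met the margin, against 50.2% and 2.03%. All 5 fell short of the root floor. The closest was c74856_g1_i1, at 42.7 FPKM in root, with 2.45 in stem, 1.88 in leaf and 1.34 in flower, beside c74856_g1_i2 at 124, 5.61, 7.85 and 3.34.

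Some genes held forms of different tissue pattern. In c154039_g1 the 2 forms that were not taken were higher in root than the one that was, at 833 and 791 FPKM, but stood at 273 and 203 FPKM in stem. Summed over its forms this gene was at 2337 FPKM in root and 595 in stem, a margin of 3.93. In c157423_g2 the form taken held 36.6% of the gene's root level. Its other forms were led by c157423_g2_i5, at 119 FPKM in root and 62.8 in leaf, c157423_g2_i2, highest in stem at 22.1 FPKM, and c157423_g2_i4, highest in flower at 25.7 FPKM. The summed margin of that gene was 2.18. In c157534_g1 the form taken was c157534_g1_i1, at 143 FPKM in root, with 15.1 in stem and 4.76 in flower, and listed at 0 in leaf. Another form of that gene, c157534_g1_i4, is matched to the R gene models PEQU_35950 and PEQU_35952 in the authors' deposited table, and stood at 22.7 FPKM in root, against 8.65 in stem, 4.21 in leaf and 1.84 in flower. It is the single Trinity gene of the set with a form in either of the deposited lists. In c137635_g2 a form at 0 in root stood at 6.69 FPKM in stem and brought the summed margin to 4.10.

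Root remained the highest tissue in all 14 genes after summing, and the margin of 5 was still met in 11. The narrowest of these was c149728_g2, whose 4 forms summed to 607 FPKM in root, compared with 112.5 in stem, 116 in leaf and 39.3 in flower, a margin of 5.19. The widest was c116575_g1, at 834 FPKM in root, against 13.9 in stem, 0 in leaf and 1.58 in flower. All forms of that gene, and all of c175374_g1, were taken by the rule, so their sums met the margin by its making. Every other sum also includes a contig chosen for its root level. No source used here says how reads were divided among forms, so differences between forms of 1 gene are uncertain.

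**Figure D4:**
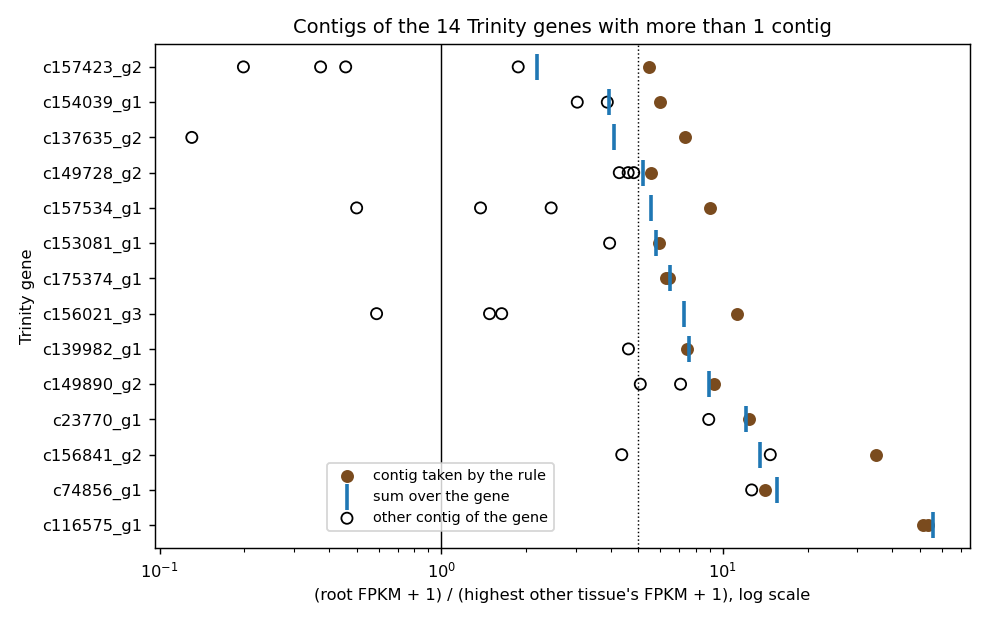
Ratio of root to the highest other tissue on FPKM + 1, on a log axis, for the contigs of each of the 14 Trinity genes with more than 1 contig. Filled circles are contigs taken by the rule, open circles are other contigs of the gene (1 contig at 0 in all libraries is not drawn), blue ticks are sums over the gene, and vertical lines mark 1 and 5. In 3 genes, c157423_g2, c154039_g1 and c137635_g2, the tick falls below 5.

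Beyond their own Trinity genes, the components of the 81 contigs held 185 further contigs in 107 genes, within 30 of the components. Of these 78 were highest in root, or 42.2%, close to 44.4% of contigs in other components with 2 or more genes. The margin of 5 was met by 10, or 5.41%, against 1.76%. Those 10 were spread over 6 components, and the following were picked out after their values were seen. Component c137996 held c137996_g3_i1, in the set at 71.7 FPKM in root, with 2.89 in stem, 5.27 in leaf and 0.389 in flower, with c137996_g2_i1 at 40.2, 3.96, 6.58 and 0.318 and c137996_g4_i1 at 19.9, 2.74, 3.16 and 0.616. In component c148357 3 contigs of other genes met the margin, at 14.01 to 16.7 FPKM in root. In contrast, c156113_g3_i3 was at 40.01 FPKM in root and 2071 in leaf, while c156113_g2_i1, in the set, was at 64.9 in root and 1.82 in leaf. Of the 185 contigs, 175 did not meet the margin.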

How the data were processed

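Total RNA was sequenced on an Illumina HiSeq 1500 and assembled with Trinity (contigs of at least 200 nucleotides), per the series' design text. Per the submitters' processing notes edgeR and DESeq were also used, with no version or role. No source used here gives the mapper or the FPKM estimator. The authors deposited FPKM values for all contigs in 1 table, and 2 further tables of heat shock and R gene models with FPKM and alignment scores deposited per match; only the contig names of these were used.

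Values were used as deposited, with 1 FPKM added before ratios were taken (Python 3.11.15, pandas 2.3.3, numpy 2.4.6). FPKM values are not counts, read totals are unknown, and with 1 library per tissue no test was run. The code of the rule was run on the deposited values shuffled across tissues within each contig, with 200 contigs planted to meet the rule. Their recovery was fixed by the planting, so this run tested the code and not the choice of limits. The value of 1 leaf read was placed where the ratios of leaf to root (or stem) best fell at 1 leaf read to 1, 2, 3, 4 or 5 reads. Contigs are named where they are the 15 highest in root, the 5 widest and 5 narrowest margins, the 3 highest in each other tissue, the 3 widest leads of stem or flower over the other, the 5 lowest, forms of the same gene, or the 5 nearest outside each limit. Contigs named in the paragraphs on genes and components were added after their values were seen. The contigs, lists and limits were chosen with earlier results of these data known.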

Additional observations from a re-analysis of the deposited data

How the results depend on the processing

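The number of contigs was recomputed with other floors, margins, pseudocounts and scalings, the contrasts among stem, leaf and flower with other pseudocounts, folds and scalings, and other results with fewer alternatives; orders, correlations and single-contig shares were not. The rule took 184 contigs with a root floor of 25 FPKM, 34 with 100 FPKM, 31 with a 10-fold margin, 135 with no condition on stem and flower, and 52 with at least 1 FPKM in both. With sums set equal it took 72, of which 57 were among the 81. Isoforms summed first gave 97 genes, holding 75 of the 79. Of the others 3 lost the margin and c157534_g1 was left out for its form matched to R genes. Leaf was next in 10 contigs after median-of-ratios scaling and in 1 where sums were equal. With a pseudocount of 5, 4-fold counts were 4 for stem over flower (median 0.86 log2), 6 for stem over leaf, 0 for leaf over stem, 0 for flower over leaf and 2 for leaf over flower, and 2 other forms met the margin of 5. With a pseudocount of 0.1, 4-fold counts were 1 for flower over stem, 29 for flower over leaf and 21 for leaf over flower. At 2-fold the counts were 55 for stem over flower, 2 for flower over stem, 7 for leaf over stem, 27 for flower over leaf and 24 for leaf over flower. With sums set equal, 4-fold counts were 1 for flower over stem, 62 for stem over leaf, 0 for leaf over stem, 26 for flower over leaf and 0 for leaf over flower. Medians were then 3.12 for stem over leaf and 1.27 for flower over leaf. With median-of-ratios factors the median of stem over leaf was 1.86 and leaf was 4-fold above flower in 6. Setting sums equal lowers leaf by 3.003 log2 units relative to root. No median changed sign. The cause of these changes was not tested beyond the construction of each setting. No paired analysis was possible because each tissue has 1 library, and no library could be left out within a tissue.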
